A study of Saccharomyces cerevisiae with 255 samples.

Results

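The mRNAs tagged by Rie1-Pup2, a fusion of the budding yeast RNA-binding protein Rie1 with a poly(U) polymerase, were compared with the background of the same assay in yeast carrying an inactive polymerase. The members were picked out by their labels, with earlier results of these data known: all libraries with the intact Rie1-Pup2 fusion (n = 3) and all libraries with a dead Pup2, called dPup2 (n = 11), which together were 14 of the 255 samples in the series. In the assay, each mRNA molecule bound by the fusion protein can receive uridines after its poly(A) tail, and sequencing of the 3' end counts, for each gene, the reads that carried 0 to 16 Us. All strains were BY4741 haploids in which the tag was placed at the end of the protein's own gene, and they were grown exponentially in glucose. The Rie1 strain carried RIE1::Rie1-Pup2. The dPup2 controls carried the inactive tag on Puf3 (7 libraries), Puf4 (2 libraries) or Puf5 (2 libraries), and no Rie1 fusion with dPup2 was among the samples. A difference between active and inactive Pup2 and a difference between a Rie1 strain and a Puf strain therefore cannot be told apart from these libraries alone. The labels do not say whether libraries of one group came from separate cultures, so every p-value measures the spread between libraries, which may be technical.

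Rie1, also called Whi8 and encoded by RIE1 (YGR250C, on the minus strand of chromosome VII, positions 991176 to 993521 of the R64 genome), is a protein with RNA recognition motifs that is found in stress granules when glucose is removed. It is known to bind the mRNA of the G1 cyclin Cln3 and to hold back entry into the cell cycle, and together with Sgn1 and the poly(A)-binding protein Pab1 it acts on mRNAs that promote meiosis. Poly(U) polymerases such as Pup-2 of Caenorhabditis elegans add uridines to RNA ends, and a fusion to an RNA-binding protein leaves them on the mRNAs that the protein has visited.

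The deposited files held read counts for 6629 genes, and the Rie1 libraries held 708740, 1052288 and 433519 reads (replicates 1, 3 and 4), against 181495 to 2917011 in the dPup2 libraries. A read with 4 to 13 Us was counted as tagged. Rie1 replicate 1 stood apart from the other Rie1 libraries: 7.13% of its reads carried a single U, against 1.79% and 1.29% in replicates 3 and 4, and its tagged share was the lowest. No pair of Rie1 libraries agreed within sampling noise, so none was a duplicate of another and all 3 were kept. Whether they came from separate cultures is not shown by this. Reads without any U made up 82.5%, 88.0% and 83.2% of the Rie1 libraries, and reads with 16 Us, the last class in the files, made up 8.62%, 7.65% and 13.4%, against 3.01% to 9.74% in dPup2. Reads of 14 to 16 Us were not counted as tagged, since the 16-U class was as large in libraries without an active enzyme as in some Rie1 libraries. With these reads counted as well, the tagged share was 11.1% in Rie1 and 6.81% in dPup2 on average, and the ranges overlapped (9.09% to 14.7% against 3.05% to 9.87%).

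The active fusion left far more tagged molecules than the inactive one. The tagged share of the library was 0.418% (2962 reads) in Rie1 replicate 1, 1.51% (15908 reads) in replicate 3 and 1.18% (5137 reads) in replicate 4. The 11 dPup2 libraries lay between 0.00761% and 0.0191%, with 1771 tagged reads among 14726840. The groups did not overlap with tails of 4 to 13 Us. The Rie1 mean of 1.04% ± 0.561 (SD, n = 3) was 81.8 times the dPup2 mean of 0.0127% ± 0.00381 (SD, n = 11), and the lowest Rie1 library was still 21.9 times the highest dPup2 one (two-sided exact permutation test, p = 0.00549, the smallest value that 3 against 11 libraries allow). The 8 C-Swat libraries, from strains in which Puf3, Puf4 or Puf5 carried no Pup2 at all, lay between 0.00609% and 0.0344%.

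**Figure D1:**
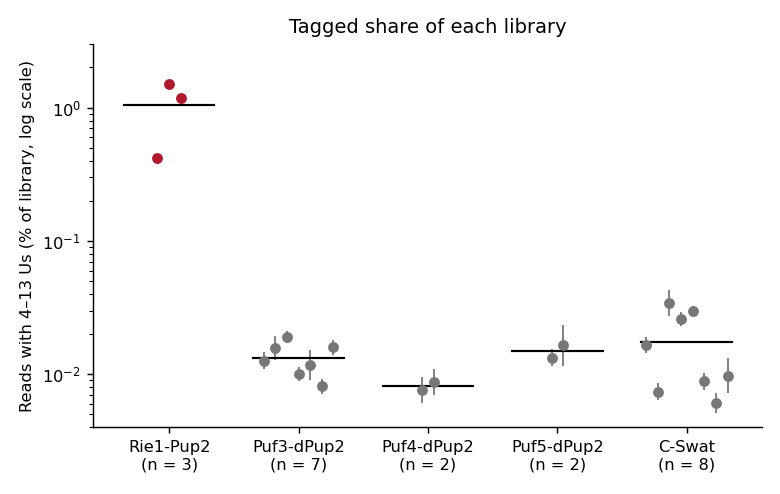
Tagged share of each library, as the percent of reads with 4 to 13 Us on a log axis, with 1 point per library for Rie1, the 3 kinds of dPup2 control and C-Swat. The 3 Rie1 libraries lie between 0.418% and 1.51%, and no dPup2 library exceeds 0.0191%.

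In Rie1, tails of different lengths were spread over genes more alike than in dPup2. Binding reliability, the median over tail lengths 4 to 13 of the best Pearson correlation across genes with another of those lengths, was 0.717, 0.863 and 0.656 in Rie1 replicates 1, 3 and 4. In dPup2 it ranged from 0 to 0.426. The difference between means, 0.745 ± 0.106 (SD, n = 3) against 0.194 ± 0.121 (SD, n = 11), was larger than the spread between libraries (two-sided exact permutation test, p = 0.00549). The dPup2 libraries held far fewer tagged reads (30 to 346), and the part of that depth in this difference was not tested. The mean tail of the tagged reads was 6.97, 6.92 and 6.6 Us in Rie1, within the range of 5.21 to 10.3 Us in dPup2, and the groups could not be told apart by it (6.83 ± 0.202 against 7.62 ± 1.31 Us, two-sided exact permutation test, p = 0.308).

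Tail lengths were unevenly filled in Rie1. Rie1 replicate 1 held 850 reads with 6 Us but 411 with 5 Us and 246 with 7 Us. Replicate 3 showed the same order less strongly, with 2921 reads at 6 Us, 2427 at 5 Us and 1424 at 7 Us. Replicate 4 had no peak at 6 Us, but its counts fell little from 867 at 5 Us to 811 at 6 Us and then sharply to 377 at 7 Us. The dPup2 libraries together held 208, 98 and 82 reads at 5, 6 and 7 Us, with no excess at 6 Us.

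For single genes, tagged reads were compared between Rie1 and dPup2 relative to all reads of the gene, with edgeR's quasi-likelihood test and Benjamini-Hochberg adjustment over all genes tested. A gene entered with at least 10 tagged reads in all and a mean of at least 16 RPM, the reads of a gene after scaling its library to a total of 1000000, which left 415 genes. Of these, 414 had a higher tagged share in Rie1 (99.8% of those tested) and 0 had a lower one, with 0 lower also at an unadjusted p under 0.05, by DESeq2 and by limma. Nearly every gene reached the 10 reads through Rie1 alone and so had to differ, which makes this count a statement on the whole library rather than on particular genes. Only 26 of the 415 genes had 10 or more tagged reads in dPup2 by themselves, 18 of them ribosomal protein genes, and 25 of these 26 were higher in Rie1.

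The exception was SEC63, which encodes an essential subunit of the protein translocation complex of the endoplasmic reticulum (ER). It is described here because it alone did not pass. In dPup2, 47 of its 2140 reads were tagged (2.20%), the highest background share among these 26 genes. In Rie1 replicates 1, 3 and 4 it reached 1.61%, 10.3% and 3.33%, and the difference did not pass the test (log2 difference 1.03, SE 0.625, adjusted p = 0.0991 by edgeR). Without Rie1 replicate 1, SEC63 passed (log2 difference 1.66, SE 0.430, adjusted p = 0.000111 by edgeR). With the C-Swat libraries as controls, 415 of 415 tested genes were higher in Rie1. KRE1, a cell wall glucan assembly gene chosen after its values were seen, also had a high background of 15 tagged reads among 1550 in dPup2, but passed with 2.30%, 10.7% and 6.98% in Rie1 (log2 difference 2.60, SE 0.743, adjusted p = 0.000489 by edgeR).

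A transcript was called a Rie1 target where its modification level, the number of Us in tagged reads divided by all reads of the gene, exceeded 0.15 in every Rie1 library, with at least 3 tagged reads and at least 16 RPM in each. Of the 3868 genes with at least 16 RPM in every Rie1 library, 79 met this (2.04%). Target modification levels, as means of the 3 libraries, ran from 0.225 to 2.14 with a median of 0.798, whereas the median over all 3868 genes was 0.0182. All 79 targets were also higher than dPup2 by edgeR, but the choice used the same Rie1 reads, so that count is a description. DESeq2 called 73 of the 79 and lost SEC23, NIP1, YRO2, DAT1, PBI2 and YMR321C. In 79 of 79 targets the lowest Rie1 tagged share lay above the highest dPup2 one, as it did in 311 of the 415 tested genes (74.9%).

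The targets gave few reads and a large part of the tags. They held 3.18%, 3.72% and 3.58% of all reads in Rie1 replicates 1, 3 and 4, but 42.9%, 29.5% and 31.5% of the tagged reads. Their tagged share was 5.63%, 12% and 10.4%, while all other genes of the same libraries reached 0.246%, 1.11% and 0.842%. In dPup2, 51 of 423546 reads on these transcripts were tagged (0.0120%), the same share as on all other genes (0.0120%). Of the targets, 50 had no tagged read in any dPup2 library, 17 had 1, 8 had 2 and 4 had 3 or more.

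The share of reads lying on targets was larger at longer tails. At 4 Us it was 22.4%, 20% and 23.3% of the reads in Rie1 replicates 1, 3 and 4. At 13 Us it was 68.2%, 47.9% and 54.3%. In dPup2 it stayed between 1.02% and 8.62% at every length from 4 to 13 Us, on small numbers of reads. Tagged reads on targets carried on average 7.86, 7.58 and 7.26 Us in the 3 Rie1 libraries, against 6.31, 6.64 and 6.30 Us on other genes. This holds in part by construction, since the modification level that chose the targets weights each read by its Us.

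**Figure D2:**
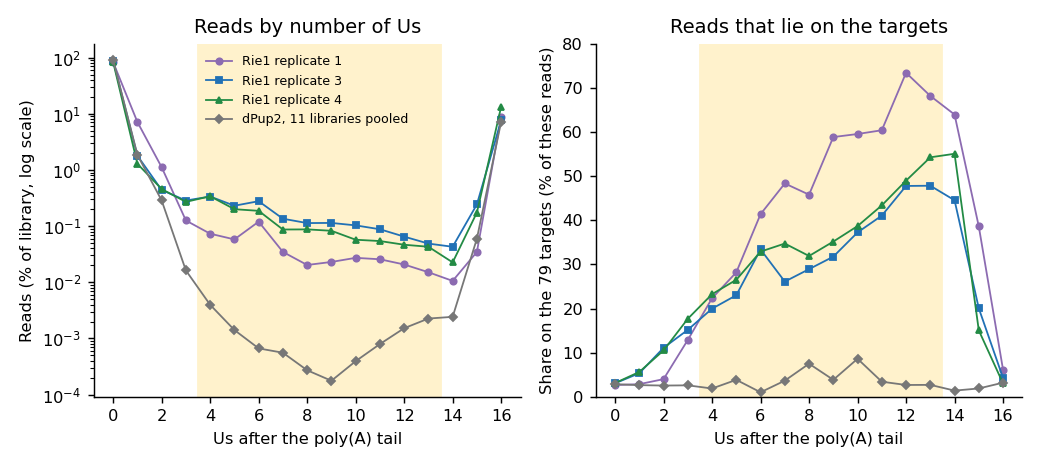
Left, reads with 0 to 16 Us as percent of the library, on a log axis, for each Rie1 library and the pooled dPup2 libraries. Right, the percent of the reads of each length that lay on the 79 targets, with the lengths of 4 to 13 Us shaded: the Rie1 lines climb from between 20% and 23.3% at 4 Us to between 47.9% and 68.2% at 13 Us, and the dPup2 line stays at or under 8.62%.

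Choosing targets in a pair of Rie1 libraries and reading them in the one left out gave a check on tags the choice had not used. The genes were those with at least 16 RPM in every Rie1 library, the left-out one included. In the left-out library only the modification level was asked, with no minimum of tagged reads. Of 79 transcripts chosen without replicate 3, 79 were above the threshold in replicate 3 (100%), against 17.2% of the other genes. Of 105 chosen without replicate 4, 91 were above it there (86.7%, others 12%). Of 147 chosen without replicate 1, 98 were above it there (66.7%, others 3.33%). Replicate 1, with the lowest tagged share, therefore set much of the list. Even among the 181 genes with at least 3 tagged reads and 16 RPM in every Rie1 library, 24 missed the threshold in replicate 1 alone. In that same set, 0 missed it in replicate 3 alone and 3 in replicate 4 alone. Just inside the threshold, by the lowest of the 3 modification levels, were SCW10 (0.152), CWP2 (0.158), TPM2 (0.159) and ITR1 (0.162). Just outside were SSC1 (0.148), TSC3 (0.144), ABF2 (0.142) and YLR285C-A (0.141).

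The 12 targets of highest mean modification level covered membrane, mitochondrial, cell wall and chromatin proteins. AIM41 (YOR215C, chromosome XV, 746725 to 747282), which encodes a mitochondrial protein, was the highest and the most even: 25%, 24% and 23.7% of its reads were tagged in Rie1 replicates 1, 3 and 4, of 44, 100 and 38 reads, against 1 of 875 reads in dPup2 (log2 difference 6.41, SE 0.76, adjusted p = 1.51e-16 by edgeR). AIM41 was chosen on these Rie1 reads, so this p-value is a description. TOS1 (YBR162C), a cell wall protein gene, reached 18%, 25.1% and 23.9%, against 1 of 5351 reads. CSR1 (YLR380W), which encodes a phosphatidylinositol transfer protein, had 18.1%, 19.3% and 20%, against 0 of 1293 reads. In these transcripts replicate 1 lay close to the other libraries although its library-wide tagged share was the lowest.

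Several others were lower in replicate 1. FMP46, a mitochondrial protein gene, had 9.26%, 24.4% and 29.8% tagged reads in replicates 1, 3 and 4. VCX1, the vacuolar exchanger of calcium ions and protons, had 4.65%, 29.5% and 27.3%. HSP60 (YLR259C), the mitochondrial chaperonin, had 7.26%, 24.9% and 23.8%, against 0 of 4265 reads in dPup2, which allows a share of up to 0.0703%. Its mean Rie1 share was thus at least 265-fold higher than the dPup2 limit, counting 3 reads over the pooled controls as that limit. Such limits cover counting error only.

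SUR2 (YDR297W), the sphinganine C4-hydroxylase of sphingolipid synthesis, had 13.9%, 19.6% and 23.8% tagged reads, against 0 of 1914 in dPup2, a share at least 122-fold higher than the limit. GAS5, a glucanosyltransferase of the cell wall, had 10%, 20.3% and 21.1% (at least 99.2-fold), and CPR4, a cyclophilin of the secretory pathway, 13.1%, 21.2% and 18.9% (at least 62.2-fold). NHP6A, a high-mobility-group protein that bends DNA, had 12.4%, 24.4% and 21.8%, against 1 of 6776 reads. YNL208W had 13.8%, 24.8% and 23.3% and YHR138C 22.6%, 16.4% and 11.9%. YHR138C was the one of these 12 in which replicate 1 was the highest by a clear margin, on 12 of 53 reads. All 12 transcripts were higher in every Rie1 library than in every dPup2 library.

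**Figure D3:**
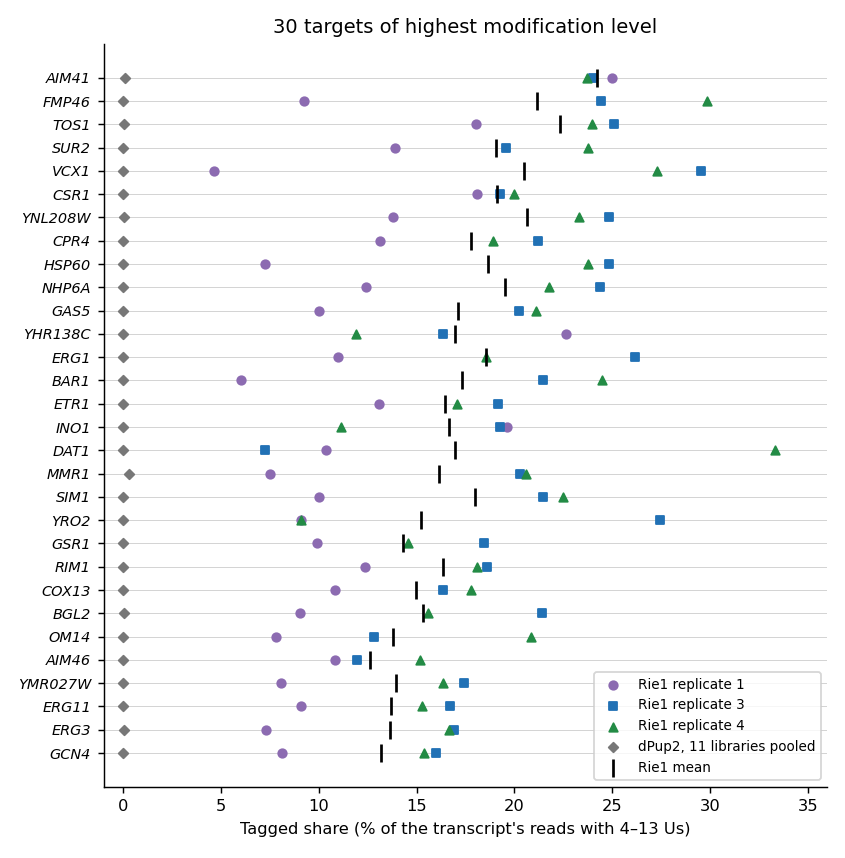
Tagged share of the 30 targets of highest modification level (percent of each transcript's reads with 4 to 13 Us), with 1 point for each Rie1 library, a bar for their mean and 1 point for the 11 dPup2 libraries pooled. AIM41 lies between 23.7% and 25% in the 3 Rie1 libraries, whereas VCX1 spans 4.65% to 29.5%.

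Sequence is shown for a short word that was more frequent after the stop codons of Rie1 targets than of other expressed genes, although most targets lacked it. In the 200 bases after the stop codon, the 7-base word AATACAT (searched in the sense strand only) was present in 21 of the 79 targets (26.6%), against 191 of 3765 other genes with a sequence (5.07%). It was chosen after all 16378 words found there had been counted, so these shares are a description with no test. The sites lay 34 to 168 bases after the stop codon, with a median of 95. Of the targets with the word, the 6 with the highest modification level are printed in the sense of the mRNA, 5' to 3', with the word in capitals, from the R64 genome of RefSeq: AIM41 at chrXV:746613-746641 (minus strand), TOS1 at chrII:563048-563076 (minus), SUR2 at chrIV:1057738-1057766 (plus), GAS5 at chrXV:269798-269826 (plus), BAR1 at chrIX:324152-324180 (plus) and INO1 at chrX:134229-134257 (minus). The bases around the word differ from one gene to the next.
AIM41: gatactttgttAATACATatcacagttac
TOS1: tttccaagaacAATACATtattgtaaaaa
SUR2: tgtaacgaaagAATACATcaaaattcaac
GAS5: ttttctttctaAATACATcattccaagac
BAR1: tagtcatttttAATACATggaaagcataa
INO1: tcccttccatcAATACATatacttaacat

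Other sets of transcripts held the word at different shares. It was found in 9.85% of the tested genes that were not targets, in 4.68% of Pub1 targets that were not Rie1 targets and in 4.86% of the other genes with at least 20 reads in every Rie1 library. Its reverse complement, ATGTATT, was found in 6.33% of Rie1 targets and 6.80% of other genes. The Puf3 recognition element TGTANATA was found in 7.59% of targets and 16.2% of others. U-rich words were commoner after Rie1 target stop codons, with TTTTAT in 63.3% against 37.2% and TTTTTTT in 38.0% against 27.9%, and the targets held 37.7% T and 13.1% G in this window against 35.1% and 15.1% in other genes.

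Read from the word instead of from the targets, 212 expressed genes carried AATACAT and 21 of them were targets (9.91%), against 58 of the 3632 genes without it (1.60%). Among genes that were not targets, those with the word had 0.657%, 1.94% and 1.51% tagged reads in Rie1 replicates 1, 3 and 4, and those without it 0.221%, 1.07% and 0.844%. All 3 libraries gave the same order. In dPup2 the shares over all genes with and without the word, again pooled over reads, were 0.0109% and 0.0122%. The other fusions were read as the mean over all genes, targets included, of each gene's median share over the libraries. This was 6.04% and 7.14% in Pub1, 0.782% and 0.542% in Puf3, and 0.844% and 0.821% in Scp160. In Rie1 the mean over the same genes, of each gene's mean share, was 2.88% and 0.930%, with the targets that gave the word among them. Genes with the word were thus also higher in Puf3, and no test of a difference between the fusions was made. Of the 58 targets without the word, VCX1, CSR1, HSP60 and NHP6A were among the highest. In SAM4 and YMR321C the same site lies in copies of nearly identical sequence, and 66.5% of the 25-base words in the read window of each were found elsewhere in the genome, so reads of this pair cannot be assigned with certainty. The same limit holds for TIF2 (68.4% of its words) and HXT3 (23.9%).

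Pathway lists were then read one by one, each by the number of its genes with at least 16 RPM in every Rie1 library that were targets, beside 79 of 3868 over all genes (2.04%). Over all these genes the tagged share was 0.421%, 1.54% and 1.24% in Rie1 replicates 1, 3 and 4. This share and those of the lists are pooled over reads, so abundant transcripts weigh more in them. Genes of the cell wall, mostly glucanases and mannoproteins that leave through the secretory pathway, had the largest number: 7 of 31 were targets (TOS1, GAS5, SIM1, BGL2, CCW14, CWP2 and SCW10), and the tagged share over the list was 1.74%, 4.78% and 4.20%. SIM1, of the SUN family of wall proteins, had 10%, 21.4% and 22.5% tagged reads, against 0 of 2850 in dPup2. All 18 tested genes of the list were higher than dPup2, as were 99.8% of all tested genes.

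Of the genes of ergosterol and lipid synthesis, 4 of 35 were targets, with a list share of 1.75%, 4.51% and 3.70%. ERG11 alone gave 247 tagged reads to this pooled share. The median modification level of the list was 0.0484, against 0.0182 over all genes. ERG1, the squalene epoxidase, had 11%, 26.2% and 18.5% tagged reads against 0 of 2230 in dPup2, at least 138-fold higher than the limit. ERG11, the lanosterol demethylase and target of azole drugs, had 9.07%, 16.7% and 15.3%, against 0 of 5632 (at least 257-fold). INO1, the inositol phosphate synthase, had 19.6%, 19.3% and 11.1%, against 0 of 577 (at least 32.0-fold). ERG3 was the remaining target of the list.

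The lists of the ER and its transport held 1 or 2 targets each, so their rates rest on few genes. These rates lay above the 2.04% over all genes. So did those of the glycolytic (11.8%), chaperone (9.09%) and translation factor (6.45%) lists. Targets were 6.67% of the ER folding and glycosylation genes, 4.17% of the translocation genes and 5.71% of the ER to Golgi transport genes. The tagged shares over these lists in Rie1 replicates 1, 3 and 4 were 1.19%, 3.58% and 2.95%, then 0.428%, 1.96% and 1.59%, then 0.564%, 1.68% and 0.948%. Over all genes they were 0.421%, 1.54% and 1.24%. The ER to Golgi list thus lay under all genes in replicate 4, and the translocation list lay close to them in replicate 1. DPM1, which makes dolichol phosphate mannose for glycosylation, had 6.47%, 16.7% and 12.1% tagged reads. OST5, a subunit of the oligosaccharyltransferase, had 5.46%, 10.9% and 6.62%, and both came from a list of 30 ER folding and glycosylation genes. SEC72, of the Sec63 complex, was the one target of 24 translocation genes with 4.69%, 8.84% and 6.59%. In the transport between ER and Golgi, 2 of 35 genes were targets: the retrieval receptor gene RER1 with 4.90%, 11.4% and 5.30%, and the COPII coat gene SEC23 with 4.62%, 3.68% and 7.58%. DESeq2 did not call SEC23 (adjusted p = 0.054).

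Mitochondrial lists were uneven. Of respiratory chain and ATP synthase genes 4 of 39 were targets, all subunits of succinate dehydrogenase or cytochrome c oxidase: COX13 had 10.8%, 16.4% and 17.8% tagged reads, SDH3 11.8%, 18.7% and 8.91%, COX8 6.98%, 9.13% and 12.7%, and COX5A was the fourth. Of 34 import genes, HSP60 and its partner HSP10 were targets, HSP10 at 2.99%, 8.27% and 6.25% against 5 of 14236 reads in dPup2. The dicarboxylate carrier gene DIC1, with 2.52%, 9.04% and 8.33%, was the one target among 17 carriers and porin. Of 75 mitochondrial ribosomal protein genes 0 were targets, and their tagged share of 0.118%, 1% and 0.612% was under that over all genes in each library. None of these 75 genes had the 10 tagged reads needed for the test.

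Among the other lists, NHP6A and NHP6B were targets out of 14 histone and high-mobility-group genes, and NHP6B had 3.33%, 9.41% and 12.1% tagged reads. Of 17 glycolytic genes, the phosphofructokinase subunit gene PFK2 (3.91%, 14.8% and 11%) and the hexokinase gene HXK2 (4.30%, 11.9% and 7.25%) were targets. The cochaperone genes STI1 (4.00%, 10% and 10.2%) and SSE1 (2.99%, 7.19% and 3.37%) were the targets among 22 chaperones. Among 31 translation factors, NIP1, a subunit of eIF3, had 5.56%, 4.39% and 8.70%, and TIF2, which encodes eIF4A, 3.87%, 3.94% and 5.85%. The glycolytic, chaperone and translation lists lay under the tagged share over all genes in each library, while the histone and high-mobility-group list lay above it at 0.789%, 3.34% and 3.06%. That share is pooled over reads, and NHP6A alone gave 346 tagged reads of its 1633 over the Rie1 libraries. The histone genes without NHP6A and NHP6B were not read separately, so the share does not describe them.

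The most abundant group of transcripts held no target. Of 138 cytosolic ribosomal protein genes 0 were targets, and all 130 tested were higher than dPup2, as were 99.8% of all tested genes. Their tagged share was 0.160%, 0.910% and 0.685%. The 33 proteasome genes and the 17 vacuolar ATPase genes held 0 targets each, at 0.267%, 0.762% and 0.665%, and 0.0646%, 0.436% and 0.225%. With targets at 2.04% of all genes, lists this small can hold 0, so these 2 counts are not read as an absence. The ribosomal, proteasome and vacuolar ATPase lists are compared by their tagged shares. All 3 lists lay under the share over all genes in each Rie1 library. The targets had a median of 229 RPM in Rie1, above the 59.1 RPM over the 3868 genes and under the 729 RPM over the 415 tested genes.

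**Figure D4:**
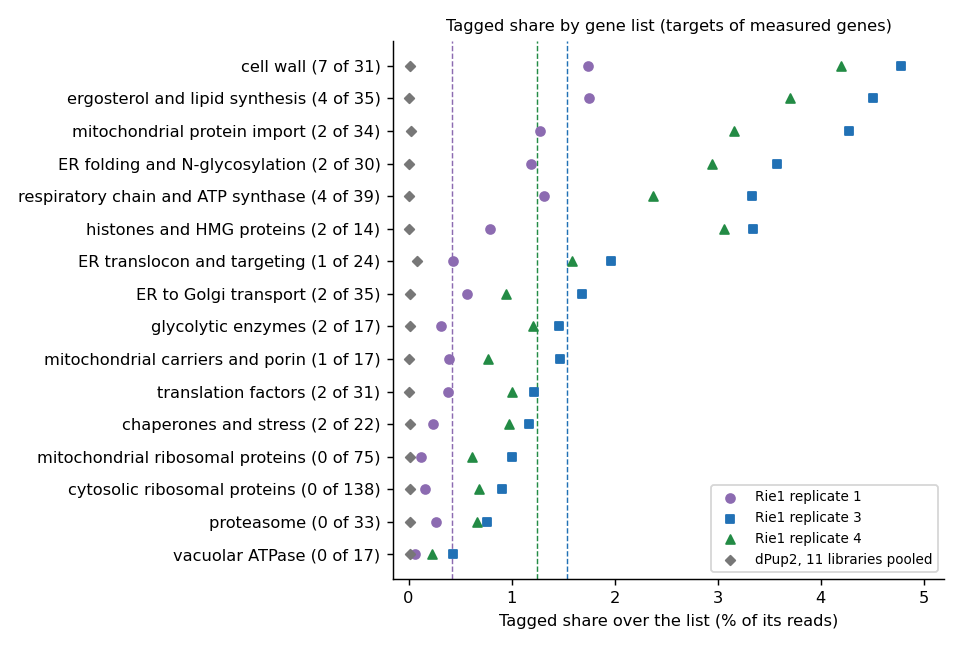
Tagged share over each gene list (percent of its reads), with 1 point per Rie1 library, the pooled dPup2 value and dashed lines for all measured genes, and the number of targets among the genes able to be one beside each name. Cell wall, lipid synthesis and import lists lie at 3.16% to 4.78% in replicates 3 and 4, and the vacuolar ATPase list lies at 0.436% and 0.225%. The shares are pooled over reads, and HSP60 alone gave 132 tagged reads to the import list.

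In all, 31 targets belonged to one of the lists and 48 to none, so annotated locations of the targets were counted as well, with words chosen with the results known. The cell wall was named for 13 targets (16.5%, against 3.36% of the 3868 genes) and the extracellular region for 5 (6.33% against 0.569%). The mitochondrion was named for 29 (36.7% against 22.1%), the endoplasmic reticulum for 18 (22.8% against 14.2%) and the vacuole for 17 (21.5% against 10.5%). Nuclear proteins were fewer, with 17 targets (21.5% against 32.5%), and the cytosolic ribosome was named for 1 (1.27% against 3.83%). A gene may carry several of these words. The coding region of the targets had a median length of 960 bases, against 1182 for other genes.

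The remaining targets, outside the naming rule and described here only to account for the list, were read by role. Among secreted and plasma membrane proteins, HXT3, a glucose transporter gene, had 10.4%, 14.9% and 13.6% tagged reads in Rie1 replicates 1, 3 and 4, against 0 of 10438 in dPup2 (at least 452-fold higher than the limit). AGA2, which encodes the adhesion subunit of the agglutinin of MATa cells, had 8.19%, 13.2% and 10.7%, and KRE9, a gene of glucan assembly, 5.84%, 12.3% and 12.1%. PMA1, the plasma membrane proton pump, had 3.28%, 8.65% and 7.26%, and MFA2, an a-factor pheromone gene, 3.51%, 6.46% and 5.37%. Wall protein genes BGL2 (9.05%, 21.4% and 15.6%) and CCW14 (8.46%, 18.8% and 14.1%) lay well above CWP2 (2.56%, 7.45% and 6.04%), CTS1 (3.12%, 4.55% and 3.88%) and SCW10 (2.41%, 3.43% and 4.68%). The secretory group thus spanned most of the range of the list, and CWP2, its most abundant member at 5075 RPM, lay at the low end.

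Among other mitochondrial targets, RIM1, which encodes the single-stranded DNA-binding protein of mitochondria, had 12.3%, 18.6% and 18.1% tagged reads, against 0 of 4866 in dPup2 (at least 265-fold). OM14, of the outer membrane, had 7.81%, 12.8% and 20.8%, and RCF2, a respiratory supercomplex factor gene, 8%, 13.1% and 8.65%. Of lipid genes, ERG3, the sterol desaturase, had 7.3%, 16.9% and 16.7%, SEC14, the phosphatidylinositol transfer protein of the Golgi, 3.23%, 18.5% and 17.5%, and EHT1, an ester synthase, 6.36%, 6.43% and 5.97%. SEC14 showed the wide gap between replicate 1 and the other libraries and EHT1 showed none.

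GCN4, the transcription factor of amino acid starvation, had 8.13%, 16% and 15.4% tagged reads, against 0 of 9622 in dPup2 (at least 422-fold). DAT1, which encodes a protein that binds AT-rich DNA, had 10.3%, 7.25% and 33.3% on 29, 69 and 24 reads, so its replicates differed widely. GIS2 (4.54%, 6.5% and 7.09%) and NPL3 (5.41%, 6.08% and 3.41%) encode RNA-binding proteins and lay among the lower targets. HOM6, an enzyme of threonine synthesis, was the lowest target by mean modification level, with 3.43%, 3.96% and 5.21%, and still had 0 of 6727 tagged reads in dPup2 (at least 94.2-fold).

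Transcripts linked to Rie1 by its known roles carried few or no tags, at low depth. The RIE1 mRNA itself gave 4, 4 and 3 reads in the Rie1 libraries (5.64, 3.8 and 6.92 RPM) with 0 tagged, and between 3.61 and 35.7 RPM in dPup2. The ranges overlapped, and reads of RIE1 do not check the fusion. SGN1 had 0 of 52 reads tagged over the 3 libraries, which allows a share of up to 5.77%, and BYE1 0 of 46 (up to 6.52%). CLN3, added after its values were seen, had 0 of 53 (up to 5.66%). For these genes a tagged share as high as that of the weaker targets was not excluded by the counts.

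Among the rest of this group, PAB1 and RBG1 were deeper and gave tighter limits. PAB1 had 0 of 210, 2 of 485 and 3 of 189 tagged reads in Rie1 replicates 1, 3 and 4 and was not a target, while Pub1 libraries tagged 30.2% to 40.2% of it. RBG1 had 0 of 168 (up to 1.79%). MSN2, an mRNA that the Rie1 complex is known to act on, had 0 of 25, 2 of 24 and 0 of 11. Its depth was close to that of CLN3, so it gave no tight limit. The meiotic genes IME1, IME2, RIM4 and NDT80 had 3 to 20 reads each over the 3 libraries and 0 tagged, so that at this depth no level could be told. Of the control proteins' own mRNAs, PUF3 had 0 of 119 tagged reads and PUF4 1 of 142, and MPT5, which encodes Puf5, had 5 reads in all.

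The level of the transcripts themselves was not called different. Over 5200 genes tested on all reads, 0 were higher (0%) and 0 lower (0%) in Rie1 than in dPup2 by edgeR with Benjamini-Hochberg adjustment. At an unadjusted p under 0.05, 127 were higher and 109 lower, and DESeq2 called 6 higher and 1 lower. None of the targets passed, and their median log2 difference in all reads was 0.29, against 0.01 over the 3868 genes, with 67 of 79 above 0. The targets were chosen on the Rie1 libraries, and the part of that choice in these values was not tested.

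Other active fusions were set beside Rie1 to see which of its targets were shared. Pub1, a protein that binds U-rich RNA, tagged 19.8% to 24.3% of its 4 libraries and had 2358 targets of its own, counted for every other fusion as a mean modification level above 0.15 and a mean of at least 16 RPM over its libraries. Of the Rie1 targets, 69 were among them (87.3% of the Rie1 targets and 2.93% of the Pub1 targets), while 55.2% of the 3868 measured genes were Pub1 targets. Sro9 shared 41 (51.9% and 5.05%), Bfr1 19 (24.1% and 8.02%), Mrn1 18 (22.8% and 7.89%) and Scp160 16 (20.3% and 5.52%), and Puf3 shared 2. Of the measured genes, 20.1% were targets of Sro9, 5.87% of Bfr1, 5.56% of Mrn1 and 7.14% of Scp160. Among 33 other intact fusions, Pub1 had the highest modification level for 52 Rie1 targets, and Rie1 had it for 19. ETR1, MMR1, SEC72 and AIM41 were targets of no other fusion.

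Directly compared with Pub1 by edgeR, 39 of 1634 tested genes had a higher tagged share in Rie1 (2.39%) and 1295 a lower one (79.3%). Of the 79 targets, chosen on Rie1's own levels, 19 were higher, 41 lower and 19 passed in neither direction, which is a description for that reason. The 39 became 19 with DESeq2 and 15 without Rie1 replicate 3. The 5 with the largest difference in favour of Rie1 among all genes passing this test and the one against dPup2 were PRM15, MED2, TIP41, ICT1 and AIM46. The first 4 of these had 0% tagged reads in every Pub1 library and met the minimum of 10 tagged reads through Rie1 alone, so their direction was fixed, and DESeq2 did not call them against dPup2. PRM15, a sugar phosphate mutase gene, had 12.8%, 30.4% and 10.5% tagged reads in Rie1 and 0% in each Pub1 library. AIM46, a mitochondrial protein gene, had 10.8%, 11.9% and 15.2% against 0% to 6.67% (log2 difference 4.21, adjusted p = 1.12e-05 by edgeR). It too met the minimum through its 22 Rie1 tagged reads, with a median of 0% in Pub1, so this p-value is a description. ICT1, an acyltransferase gene, had 7.69%, 12.5% and 15.8% on 93 reads in all. MED2, a Mediator subunit gene, rested on 10 tagged reads and TIP41, a gene of TOR signalling, on 11. Of these 5, AIM46 alone was a target in every Rie1 library.

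The targets were divided by comparison with Pub1. Of the 12 with the highest modification level, AIM41 and SUR2 were higher in Rie1, and YNL208W and YHR138C were lower. The others of these 12 passed in neither direction. AIM41 had 0% to 3.64% tagged reads in Pub1 against 23.7% to 25% in Rie1 (log2 difference 3.04, adjusted p = 2.62e-05 by edgeR), and SUR2 0% to 12.7% against 13.9% to 23.8% (log2 difference 2.23, adjusted p = 4.89e-07). HSP10 had 0.275% to 2.80% in Pub1 and 2.99% to 8.27% in Rie1 (log2 difference 2.89, adjusted p = 2.88e-11). In AIM41, SUR2 and HSP10 the Rie1 libraries lay above every Pub1 library. These genes were chosen on their Rie1 tags, so the p-values are descriptions. OST5, SEC72 and DIC1 were higher in Rie1 as well, by 1.91, 2.19 and 1.36 on the log2 scale.

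TOS1, HSP60, NHP6A, ERG1 and GAS5 did not pass in either direction, with medians of 17.4% to 28.7% in Pub1. SSE1, TIF2 and SEC23 lay far below Pub1, with log2 differences of -3.15, -3.11 and -2.33. Genes outside the naming rule, chosen after their values were seen, extend the first group: ETR1, a reductase of mitochondrial fatty acid synthesis, had 13.1%, 19.2% and 17.1% in Rie1 and 0% to 2.78% in Pub1, MMR1, which carries mitochondria to the bud, 7.5%, 20.3% and 20.6% against 0% to 4.65%, and BAR1, the protease that degrades alpha factor, 6.02%, 21.5% and 24.5% against 0% to 5.56%.

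The word AATACAT was unevenly spread over this division. It was present in 9 of the 19 targets higher than in Pub1, in 6 of the 19 without a call and in 6 of the 41 lower than in Pub1. Over all genes compared it was present in 16 of the 39 higher in Rie1 (41.0%) and in 50 of the 1239 lower ones with a sequence (4.04%). As the word had been chosen on the targets, these counts are not independent of that choice.

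**Figure D5:**
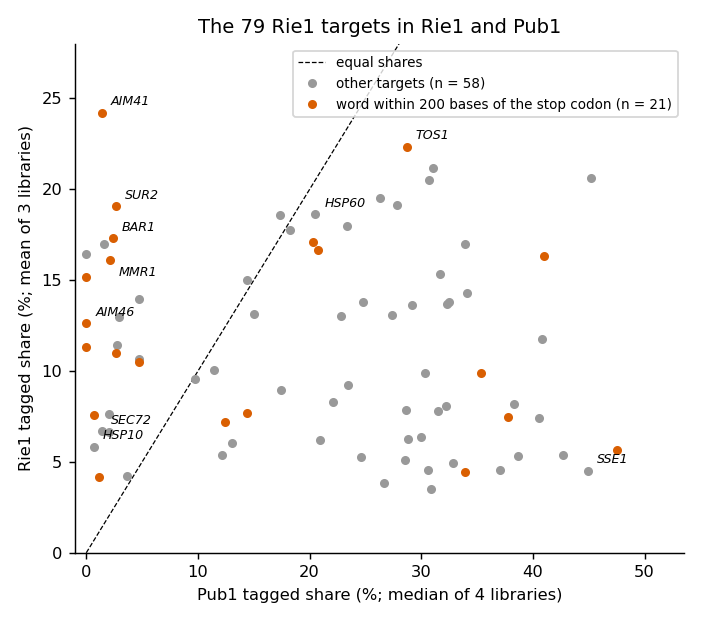
Mean tagged share of each of the 79 targets in Rie1 (percent, 3 libraries) against its median in Pub1 (percent, 4 libraries), with targets that carry AATACAT after the stop codon marked and a dashed line for equal shares. Of the 79 targets, 22 lie under 5% in Pub1, among them AIM41 and SUR2, and 56 lie at 10% or above.

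Against Puf3, whose targets are mostly mRNAs for mitochondrial biogenesis, 435 of 753 tested genes were higher in Rie1 (57.8%) and 151 lower (20.1%). Of the Rie1 targets, 77 were higher and 2 lower, but 73 had a median tagged share of 0% in Puf3 and were chosen on their Rie1 tags, so this count is a description. The 2 lower ones were the chaperonin genes: HSP60 had 31.0% to 44.4% in the 12 Puf3 libraries (log2 difference -1.01, adjusted p = 0.003 by edgeR) and HSP10 30.6% to 46.9% (log2 difference -2.68, adjusted p = 2.29e-09). Both were thus tagged in Rie1 and Puf3, at a higher share in Puf3.

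Against Scp160, an ER-associated protein, 239 of 598 tested genes were higher in Rie1 (40%) and 114 lower (19.1%), and of the targets 62 were higher, 1 (KTR1, a Golgi mannosyltransferase gene) lower and 16 without a call. The targets were chosen on their Rie1 tags, and several, HSP60 and AIM41 among them, had 0% in both Scp160 libraries, so this count is a description too. HXT3, chosen after its values were seen, was also highly tagged by Scp160, at 18.8% and 21.7% in the 2 Scp160 libraries, and its difference from Rie1 did not pass the test (log2 difference -0.64, adjusted p = 0.426 by edgeR). Without Rie1 replicate 3, 0 genes passed as higher than Scp160 and 0 as lower, although 107 and 115 had an unadjusted p under 0.05 in edgeR. Without replicate 4, 141 were higher and 69 lower, and without Scp160 replicates 1 and 4 in turn, 24 and 95 were higher and 45 and 51 lower, so the counts against Scp160 rest on single libraries. The 3 comparisons with other fusions share the Rie1 libraries.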

How the data were processed

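Poly(A) RNA 3' ends were sequenced by the authors from BY4741 strains. Per the labels and the study's methods, reads were demultiplexed with bcl2fastq, trimmed with cutadapt, aligned to R64 with Bowtie2 and assigned with bedtools to a window around each transcript end, and Us after the poly(A) tail were counted on the mate read; versions, and whether duplicate molecules were removed, are not given in the sources used here. The deposited values are raw counts per gene and number of Us (0 to 16).

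Groups came from the labels. The members, gene lists and tests were chosen with earlier results of these data known. Tagged reads (4 to 13 Us) were tested with edgeR 4.0.16 (quasi-likelihood, offset of the log of all reads of the gene and library, Benjamini-Hochberg adjusted p under 0.05) and checked with DESeq2 1.42.0 and limma 3.58.1. Genes needed 10 tagged reads and a mean of 16 RPM. Library values were compared by two-sided exact permutation tests. Reads of all lengths were tested the same way for abundance, with TMM normalisation. The scripts were tested on simulated counts. Intervals and limits cover counting error only, with 3 counts as the limit of a count of 0. Of the genes, 5956 of 6629 matched RefSeq. Alternatives were other controls, other U lengths, other filters, other tools, a replicate block and leaving out each library.

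The named genes were the 12 targets with the highest modification level, up to 3 targets of each list, any gene lower in Rie1, known partners and the Puf genes, and the 5 genes highest against Pub1; further genes are stated as chosen after their values were seen.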

Additional observations from a re-analysis of the deposited data

Results flagged for a closer look

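Signal above the controls also lay just outside the 4 to 13 Us that define a tagged read. Reads with 3 Us made up 0.227% of the Rie1 libraries on average (0.126%, 0.285% and 0.270% in replicates 1, 3 and 4), against 0.00717% to 0.0331% in dPup2 (two-sided exact permutation test, p = 0.00549, the smallest possible, adjusted over 6 lengths p = 0.0165). Of these reads 12.9%, 15.2% and 17.7% lay on the 79 targets, against 2.60% in dPup2. Reads with 14 Us made up 0.0253% on average (0.0106%, 0.0429% and 0.0226%), against 0.000586% to 0.00532% (two-sided exact permutation test, p = 0.00549, adjusted p = 0.0165), and 64%, 44.6% and 55.1% of them lay on the targets, against 1.40% in dPup2. Reads with 1, 2, 15 or 16 Us did not pass (exact permutation tests, adjusted p = 0.258, 0.185, 0.110 and 0.148).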

How the results depend on the processing

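Among the alternatives tried, 0 results reversed. With the Puf4 and Puf5 dPup2 libraries as the only controls, the differences of 1.03 percentage points in tagged share and 0.650 in binding reliability had p = 0.0571 (exact permutation test), the smallest that 3 against 4 libraries allow. Counting 4 to 16 Us made the Rie1 tails shorter than dPup2 by a difference of -0.87 Us (p = 0.00549, exact permutation test), brought the tagged shares to 11.1% and 6.81% with overlapping ranges (p = 0.0275, exact permutation test), gave 71 higher genes of 4384 tested and raised the targets to 1698. A minimum of 30 tagged reads gave 191 higher genes of 192, and no minimum of tagged reads gave 131 targets. DESeq2 called 291 genes higher than dPup2, 19 higher than Pub1 and 7 of another abundance.

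Leaving out 1 library at a time gave differences of 0.789 to 1.34 percentage points in tagged share, 0.492 to 0.596 in reliability and -1.03 to -0.53 Us in tail length. Higher genes ranged from 230 to 414 (230 without Rie1 replicate 3), lower genes from 0 to 0 and targets from 79 to 147 (147 without Rie1 replicate 1). Genes higher than Pub1 ranged from 15 to 43 and than Puf3 from 228 to 439, each lowest without Rie1 replicate 3. Genes higher than Scp160 ranged from 0 to 320: 0 without Rie1 replicate 3, 141 without replicate 4, and 24 and 95 without Scp160 replicates 1 and 4. Genes of another abundance ranged from 0 to 4, with 4 without Rie1 replicate 1 and 1 without Puf3-dPup2 replicate C1_8. The causes were not tested.

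The replicate numbers share no stated culture or day, and deviations of 4 same-numbered pairs correlated at 0.04 to 0.22, against -0.31 to 0.40 for 29 other pairs. With a replicate block, 408 of 415 genes were higher and 0 differed in abundance.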
